A study of Mus musculus with 3 samples.

Results

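Cholangiocyte, progenitor and keratin genes were examined in the livers of TMX-/- and wild-type mice. The set held 8 genes: the ductal keratins Krt7 and Krt19, the ductal and progenitor genes Sox9, Spp1, Epcam and Cd24a, and the simple keratins of hepatocytes Krt8 and Krt18. A gene was taken up when the platform annotation of the array gave its symbol, its current name or a synonym. Of the 8 genes, 5 had a row, out of 13539 named genes with a value on any array. Krt19, Sox9, Spp1 and Epcam (listed under the older name Tacstd1) had a value on all 3 arrays, and Cd24a had a value on 1. No row carried the name of Krt8, Krt18 or Krt7, so these 3 genes were not analysed here and hepatocyte keratins could not be set against ductal markers.

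All livers came from female C57BL/6 mice. The arrays held, in their Cy3 channel, liver of TMX-/- mice given LPS/GalN, liver of wild-type (WT) mice given LPS/GalN, and liver of untreated TMX-/- mice. Treated mice received 3 ng lipopolysaccharide and 10 mg D-galactosamine by intraperitoneal injection and were sampled after 24 h. The Cy5 channel of every array held untreated WT liver. There was 1 array for each liver and no exchange of dyes, and the labels give neither the age of the mice, nor the TMX allele, nor whether a channel held a single mouse or a pool. Values are log ratios of the deposited table, read as log2 and centred on the median of the 10179 genes measured on all 3 arrays. Each group was a single array, so differences were not tested and no p-value is given. The only error at hand is the SD of a single probe, from 81 genes with 2 probes each: 0.76 log2 for treated TMX-/-, 0.42 for treated WT and 0.42 for untreated TMX-/- liver.

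Bile ducts are lined by cholangiocytes, an epithelium that expresses the keratins Krt7 and Krt19 beside the Krt8 and Krt18 that hepatocytes also carry. In liver injury, ductal cells and progenitor-like cells at the edge of the portal tract can multiply, a pattern known as the ductular reaction, and hepatocytes can switch on Sox9 and Spp1. Several of these genes are not limited to ducts: Spp1 is also made by macrophages and activated stellate cells, and Cd24a by B cells and granulocytes. In whole liver, more cells of a type and more RNA per cell cannot be told apart.

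Tmx1, the targeted gene, gave the direction of the ratio. It stood at -3.88 in treated TMX-/- liver, 0.59 in treated WT liver and -2.96 in untreated TMX-/- liver, which fits the genotypes if the deposited values are sample over untreated WT liver. The numerator is not stated in the sources used here, so this direction is likely and every "higher" below would read "lower" with the opposite one. The table holds ratios without signal, so no gene could be shown to be above background, and the presence of hepatocytes or ducts in a sample could not be checked from levels.

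Spp1 encodes osteopontin, a secreted phosphoprotein that binds integrins and CD44. Its log2 ratio to untreated WT liver was 1.65 in treated TMX-/- liver, 0.05 in treated WT liver and -0.23 in untreated TMX-/- liver. Treated TMX-/- liver thus stood apart, while the other arrays lay within the SD of a single probe of 0. Treated TMX-/- liver was 1.60 log2, or 3.02-fold, above treated WT liver, with a probe SD of 0.59 for that difference. This was rank 307 from the highest of 10179 genes. Against untreated TMX-/- liver the difference was 1.88 (3.68-fold, probe SD 0.67). The response of TMX-/- liver exceeded that of WT liver by 1.83, at rank 187 from the highest, and this is 2.81 times the probe SD of 0.65. The SD over all genes was 1.04 in treated TMX-/-, 0.48 in treated WT and 0.40 in untreated TMX-/- liver. Scaling the arrays to the same SD thus shrinks ratios of treated TMX-/- liver and enlarges the others. When the arrays were so scaled, the Spp1 difference from treated WT liver was 0.95, just under 2-fold, and with quantile normalization it was 0.99. Under these scalings Krt19, at 1.26 and 1.36, and not Spp1, was the gene past 2-fold between the treated livers. With equal SDs the ratio of Spp1 in treated TMX-/- liver went from 1.65 to 1.02. That of Krt19 in treated WT liver went from -0.92 to -1.22.

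Cd24a encodes a small, heavily glycosylated surface protein of progenitor cells, ductal cells and leukocytes. Its only value was 1.61 (3.06-fold), in treated TMX-/- liver, or 0.998, just under 2-fold, with arrays scaled to the same SD. Its cells for treated WT and untreated TMX-/- liver were blank. No difference between livers can therefore be given for it. The value is not unusual for genes of this kind: 558 named genes had a value on that array alone, their median was 0.98, 274 of them (49.1%) were at least 2-fold higher, and 129 lay above Cd24a. The rule behind blank cells is not given in the sources used here.

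Epcam encodes an adhesion molecule of the epithelial surface that marks cholangiocytes and hepatic progenitors and is low in mature hepatocytes. Its log2 ratio was 0.85 in treated TMX-/- liver, 0.27 in treated WT liver and -0.27 in untreated TMX-/- liver. Treated TMX-/- liver lay highest and untreated TMX-/- liver lowest. Treated against untreated TMX-/- liver gave a difference of 1.12 (2.17-fold, probe SD 0.67). With arrays scaled to the same SD this difference was 0.95, just under 2-fold, while that of Krt19 was 1.05. The difference between treated TMX-/- and treated WT liver was 0.58, about the size of its probe SD of 0.59, and it was 0.16 with arrays scaled to the same SD and 0.18 with quantile normalization.

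Spp1 and Epcam were the genes of the set that passed 2-fold between treated and untreated TMX-/- liver, and their promoters are shown for that reason. Both are RefSeq sequences of build GRCm38.p6, from 250 bases before the start site to 50 after it, on the plus strand: chr5:104434861-104435160 for Spp1, the first of 2 start sites listed, and chr17:87635729-87636028 for Epcam. Capitals mark matches on either strand to 6 motifs, those of AP-1 (TGANTCA), the TATA box (TATAAA), the GC box (GGGCGG), the E-box (CACGTG), SOX factors (ACAANG) and RBPJ (TGGGAA).
Spp1: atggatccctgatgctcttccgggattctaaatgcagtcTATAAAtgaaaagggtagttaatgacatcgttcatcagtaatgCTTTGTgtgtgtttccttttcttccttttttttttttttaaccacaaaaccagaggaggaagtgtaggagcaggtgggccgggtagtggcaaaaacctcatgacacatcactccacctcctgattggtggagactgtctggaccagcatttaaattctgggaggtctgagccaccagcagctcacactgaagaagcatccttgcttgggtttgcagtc
Epcam: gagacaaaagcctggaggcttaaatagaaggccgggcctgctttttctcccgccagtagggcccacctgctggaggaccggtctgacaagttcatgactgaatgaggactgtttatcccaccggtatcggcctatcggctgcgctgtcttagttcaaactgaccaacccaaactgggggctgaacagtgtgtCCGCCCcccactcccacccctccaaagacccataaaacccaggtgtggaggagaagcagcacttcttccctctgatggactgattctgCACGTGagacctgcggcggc

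The Spp1 window held 1 TATA box match and 1 SOX match, beginning at positions -211 and -168 from the start site. The Epcam window held a GC box match on the minus strand and an E-box match that begins at position 30. The promoters shared no match among the 6 motifs. Of 32851 promoter windows of the same length, 41.2% held a SOX match, 13.6% a TATA box, 35.7% a GC box and 7.15% an E-box. AP-1 (7.81% of windows) and RBPJ (25.6%) matched neither. GC content was 45.3% for Spp1 and 57.0% for Epcam, with 3 and 11 CpG dinucleotides.

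Sox9 encodes a transcription factor of the ductal plate and of bile ducts. Its log2 ratio was 0.35 in treated TMX-/- liver, -0.34 in treated WT liver and 0.17 in untreated TMX-/- liver. All of these lay within the SD of a single probe of 0. The difference between treated TMX-/- and treated WT liver was 0.69 with a probe SD of 0.59, and between treated and untreated TMX-/- liver 0.18 with a probe SD of 0.67. No difference of Sox9 reached 2-fold.

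Krt19 encodes an acidic simple keratin that is used to stain bile ducts. Its log2 ratio was 0.06 in treated TMX-/- liver, -0.92 in treated WT liver and -0.64 in untreated TMX-/- liver. Treated TMX-/- liver was near untreated WT liver, and the other livers lay lower, at ranks 9950 and 9735 from the highest of 10179 genes. Treated TMX-/- liver was 0.98 above treated WT liver, just under 2-fold at 1.97-fold (probe SD 0.59), and 0.70 above untreated TMX-/- liver (probe SD 0.67). The response of TMX-/- liver minus that of WT liver was 1.62, or 2.48 times the probe SD. The untreated WT reference enters the low ratios of treated WT and untreated TMX-/- liver alike. When treated WT liver was set against untreated TMX-/- liver instead, Krt19 stood at -0.28, Sox9 at -0.50, Spp1 at 0.28 and Epcam at 0.54.

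**Figure D1:**
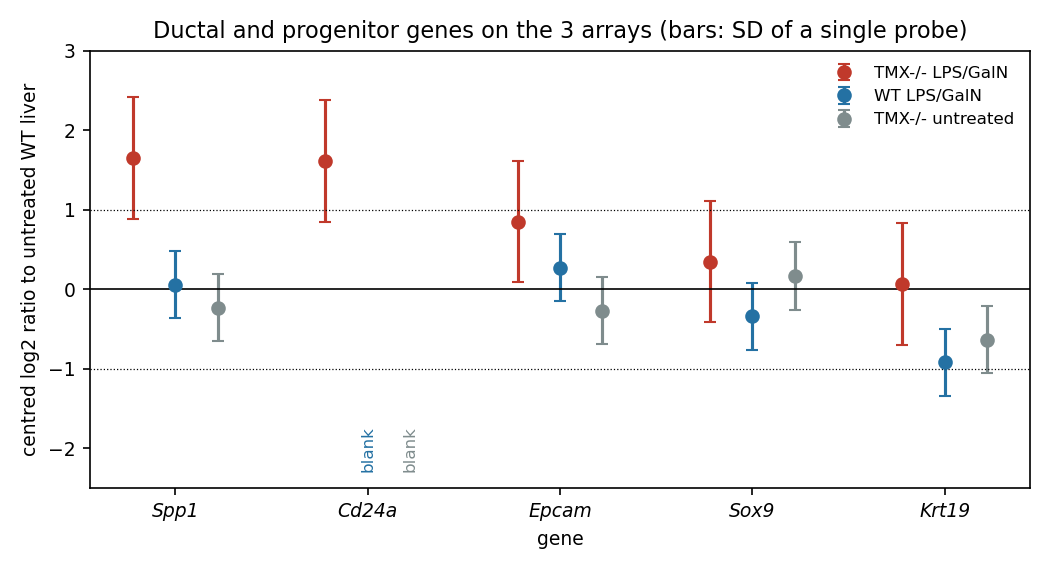
Centred log2 ratio to untreated WT liver for each gene on each array, where points are single values and bars are the SD of a single probe on that array (not of replicates). Spp1, at 1.65, and Cd24a, at 1.61 (0.998 with arrays scaled to the same SD), lie above the dotted 2-fold line in treated TMX-/- liver. Cd24a is blank on the other arrays, and Krt19 lies below 0 in treated WT and untreated TMX-/- liver.

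The order of the ratios in treated TMX-/- liver was Spp1, Cd24a, Epcam, Sox9, Krt19. Neighbours in this order differed by less than the probe SD of 0.76, except Cd24a and Epcam, which differed by about that SD. In treated WT liver the order was Epcam (0.27), Spp1 (0.05), Sox9 (-0.34), Krt19 (-0.92), and Sox9 and Krt19 were the only neighbours more than 1 probe SD of 0.42 apart. In untreated TMX-/- liver Sox9 (0.17) came first, then Spp1 (-0.23), Epcam (-0.27) and Krt19 (-0.64), and no neighbours were more than 1 probe SD apart.

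Against untreated WT liver, 1 of the 4 genes measured on all arrays, Spp1, was at least 2-fold higher in treated TMX-/- liver and 0 were lower, where 13.6% of the 10179 genes were higher and 13.2% lower. Cd24a, also past 2-fold there unless arrays were scaled to the same SD, is not among the 10179 genes. The share to set beside it is the 49.1% of genes with a value on that array alone. In treated WT liver 0 of 4 were higher and 0 of 4 lower, against 2.8% and 1.75% of all genes. In untreated TMX-/- liver 0 of 4 were higher and 0 of 4 lower, against 1.78% and 0.835% of all genes. Between treated TMX-/- and treated WT liver 1 of 4, Spp1, was 2-fold higher and 0 lower, against 9.64% and 10.6% of all genes. Between treated and untreated TMX-/- liver 2 of 4, Spp1 and Epcam, were higher and 0 lower, against 11.4% and 12.1%. In the difference of the responses 2 of 4, Spp1 and Krt19, were higher and 0 lower, against 9.82% and 11.6%. With so few genes, these shares are descriptions of single genes.

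The median of Spp1, Epcam, Sox9 and Krt19 was 0.60 in treated TMX-/- liver, -0.14 in treated WT liver and -0.25 in untreated TMX-/- liver. It was 0.83 for treated TMX-/- minus treated WT liver and 0.91 for treated minus untreated TMX-/- liver, where the medians of all genes were 0.01 and -0.000695. All 4 genes were above 0 in both of these differences, except that Sox9 stood at -0.05 for treated minus untreated TMX-/- liver with arrays scaled to the same SD or quantile normalization. These comparisons share the treated TMX-/- array, so the values are not separate evidence.

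**Figure D2:**
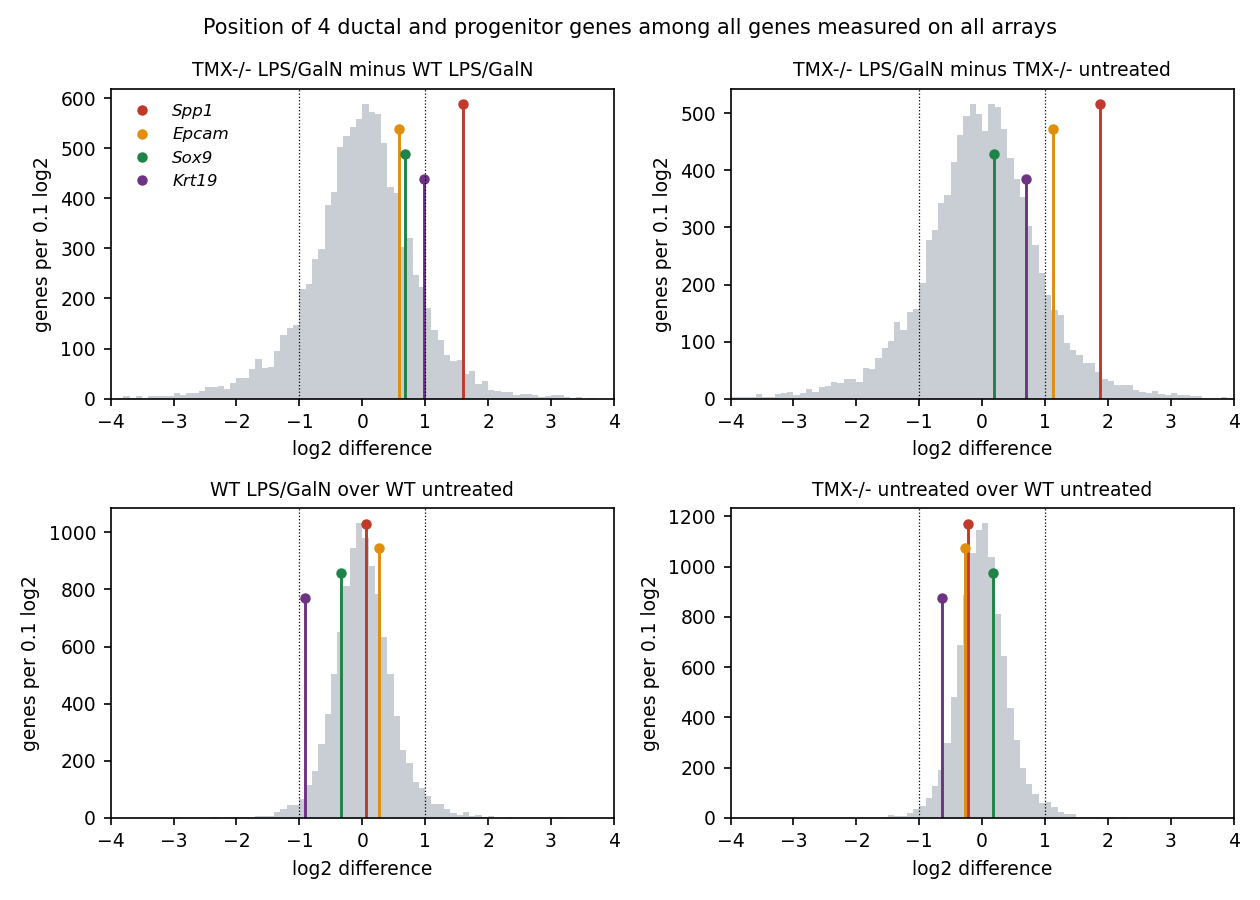
Histograms of the log2 difference of the 10179 genes measured on all arrays (x axis, bins of 0.1 log2; y axis, number of genes) in 4 comparisons, with Spp1, Epcam, Sox9 and Krt19 as coloured lines whose height carries no value and 2-fold as dotted lines. Spp1, at 1.60 and 1.88, lies in the upper tail of both upper panels, and Krt19, at -0.92 and -0.64, in the lower tail of both lower panels.

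The genes whose 3 ratios lay nearest to each of these were found by Euclidean distance, over 3 arrays only. Tnip1 (distance 0.04) and Dhx58 (0.09) were nearest to Spp1, and Atxn10 (0.02) and Gna13 (0.06) to Epcam. For Krt19 they were Phc1 (0.10) and Wee1 (0.13), and for Sox9 2310033P09Rik (0.04) and Zfp759 (0.05).

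Other markers of cholangiocytes and progenitors lay on both sides of 0. Of 30 listed names, 19 had a value on all arrays, and 14 of the 19 lay above 0 for treated TMX-/- minus treated WT liver. The median of the 19 was 0.29, where that of all genes was 0.01. Of the 19, 3 were at least 2-fold higher and 3 lower, against 9.64% and 10.6% of all genes. The higher genes were Tspan8 (1.33), a tetraspanin, St14 (1.22), the membrane protease matriptase, and Prom1 (1.02), the surface antigen CD133. The lower genes were Pdzk1ip1 (-1.98), Lgr5 (-1.86), a receptor for R-spondins found in pericentral hepatocytes as well as in activated progenitors, and Cftr (-1.04), the chloride channel of the ductal membrane. Prom1 and Cftr were named after their values were seen. With arrays scaled to the same SD the median was 0.19, with 2 higher and 2 lower: Tspan8 (0.35), St14 (0.41) and Cftr (-0.51) were within 2-fold, while Prom1 was at 1.06 and Onecut1, a hepatic transcription factor named for this scaling alone, at 1.09. Fewer of the 19 then lay above 0. Slc4a2 (-0.05), Cdh1 (-0.02), Anxa4 (-0.21), Ggt1 (-0.21) and Pkhd1 (-0.61) turned below 0, and Onecut2 (0.19) turned above it. These genes too were named for this scaling alone. Tspan8 was also among the highest in treated TMX-/- liver against untreated WT liver, at 1.99, and stood at 0.67 in treated WT and 0.27 in untreated TMX-/- liver. Cftr stood at -1.22, -0.18 and -0.15 on these arrays, so this channel of duct cells lay low where Spp1 and Epcam lay high. Among genes with a value on some arrays only, Muc1, an epithelial mucin, stood at 1.64 in treated TMX-/- and 0.85 in treated WT liver.

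**Figure D3:**
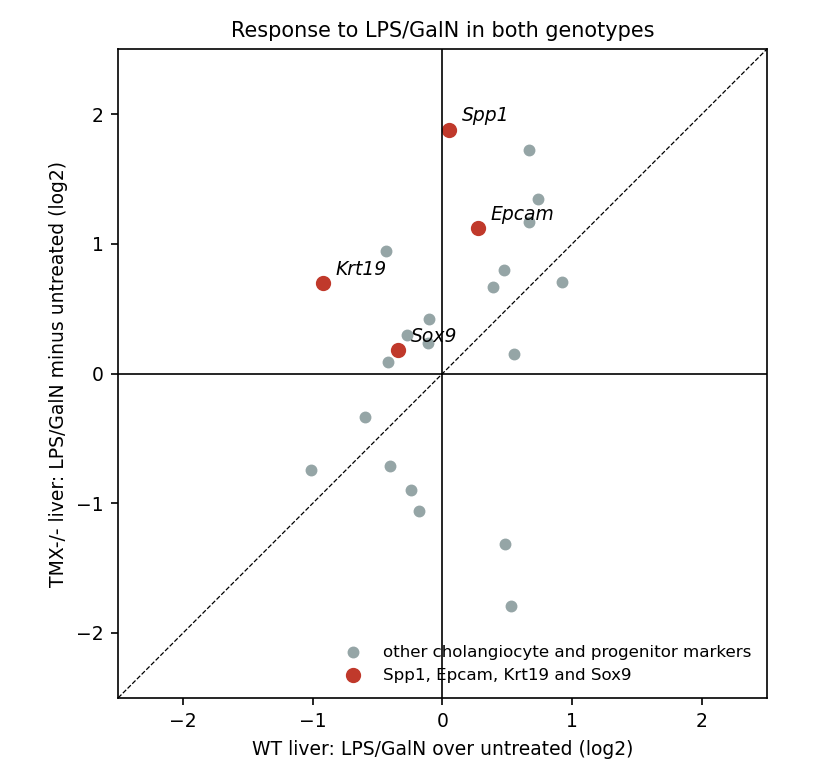
Response to LPS/GalN in TMX-/- liver (y axis, treated minus untreated, log2) against that in WT liver (x axis, treated over untreated, log2), for Spp1, Epcam, Krt19 and Sox9 in red and 19 other cholangiocyte and progenitor markers in grey, with the dashed line marking equal responses. All 4 red points lie above the dashed line, Krt19 and Sox9 with opposite signs in the 2 genotypes (for Sox9 not when arrays are scaled to the same SD, where its TMX-/- value is -0.05), and the grey points lie on both sides. Untreated WT liver enters the x value and no part of the y value.

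Values of the other keratins lay on both sides of 0. Of the listed keratins other than Krt7, Krt8, Krt18 and Krt19, 9 had a value on all arrays, with a median of -0.29 for treated TMX-/- minus treated WT liver (0.04 with quantile normalization). Over all 12 keratins other than Krt19 with a value on all arrays, listed or not, that median was -0.04, and 0.09 with either scaling of the arrays. Of the 12, 2 were 2-fold higher and 2 lower (2 higher and 0 lower with either scaling), against 9.64% and 10.6% of all genes without scaling. Krt14, a basal keratin of stratified epithelia, was 1.19 higher (1.23 with arrays scaled to the same SD). Its ratios of 0.50 in treated TMX-/-, -0.69 in treated WT and -0.18 in untreated TMX-/- liver lay in the same order as those of Krt19. Krt73 (-1.27), a keratin of the hair follicle, and Krt80 (-1.20), an epithelial keratin, were more than 2-fold lower, but both were within 2-fold with arrays scaled to the same SD (-0.98 and -0.14) or quantile normalization (-0.97 and 0.04). Krt72 stood at 0.39. Krt80 was also low against untreated WT liver, at -2.06 in treated TMX-/-, -0.85 in treated WT and -0.48 in untreated TMX-/- liver. Krt28, another keratin of the hair follicle, Krt24 and Krt42 are not on the list and were named after their values were seen. Krt28 had ratios of 2.80, 0.44 and -0.43 on these arrays, and Krt24 of -0.02, -0.41 and -0.36. Between the treated livers Krt28 differed by 2.36 (1.14 with arrays scaled to the same SD), Krt24 by 0.39 and Krt42 by -0.05. Most of these keratins are not known as genes of the liver, and no signal was at hand to show that they were above background.

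Keratin filaments are anchored at desmosomes by plakins and catenins. Of 10 such genes measured on all arrays, 3 were at least 2-fold higher in treated TMX-/- than in treated WT liver and 0 lower, against 9.64% and 10.6% of all genes. The median of the 10 was 0.48 (0.14 and 0 past 2-fold with arrays scaled to the same SD, 0.18 and 1 higher with quantile normalization). The higher genes were Ppl (1.16), the linker periplakin, Fam83h (1.12), which organises keratin filaments, and Plec (1.03), the cytolinker plectin. The desmosomal cadherins Dsg2 (-0.59) and Dsc2 (-0.44) were the lowest. Ppl stood at 1.77 in treated TMX-/-, 0.61 in treated WT and -0.44 in untreated TMX-/- liver.

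Filament proteins outside the keratin family were measured in the same comparison. Vim, the vimentin of mesenchymal cells and leukocytes, was 2.72 higher in treated TMX-/- than in treated WT liver, and Lmna, which encodes the nuclear lamins A and C, was 1.92 higher. Prph (0.57) and Lmnb1 (0.06) completed the 4 measured on all arrays. After scaling of the arrays to the same SD, Vim stood at 1.30 and Lmna at 1.22, against 1.26 for Krt19, and the median of the 4 was 0.92 in place of 1.24. Among 6 genes linked to keratin aggregates (Mallory-Denk bodies), 2 were 2-fold higher and 0 lower, against 9.64% and 10.6% of all genes. The median of the 6 was 0.59 (0.29, with 0 higher and 1 lower, when arrays were scaled to the same SD). The higher genes were Tgm2 (1.63), the transglutaminase that cross-links keratins, and Nqo1 (1.06), an NRF2 target. The heat shock genes Hspb1 (0.41) and Hsp90aa1 (0.23) were the lowest of this list, and turned to -0.86 and -1.16 with arrays scaled to the same SD. Hspb1 stood at 1.97 in treated TMX-/- and 1.56 in treated WT liver, and Hsp90aa1 at 2.07 in treated TMX-/- and 1.84 in treated WT liver, so both lay high in each treated liver.

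Pathways tied to the ductular reaction were read from the same comparison, where 9.64% of all genes were higher and 10.6% lower. The receptor for TWEAK, a cytokine that drives progenitor growth, is encoded by Tnfrsf12a, which was 4.16 higher in treated TMX-/- than in treated WT liver. Of 5 genes of this axis, 3 were 2-fold higher and 0 lower, with Nfkb2 (1.43) and Relb (1.32), of the non-canonical NF-kB pathway, and with Traf2 (0.67) and Birc3 (0.55) below 2-fold. After scaling to the same SD 2 were higher, Tnfrsf12a (2.01) and Nfkb2 (1.16), Relb was at 0.72, and the median was 0.72 in place of 1.32. Of 10 YAP partners and targets, 5 were higher and 0 lower, with a median of 0.95 (0.49 and 3 higher with arrays scaled to the same SD). Ccn1 (3.29) and Ccn2 (2.75), matricellular proteins, led them, followed by the receptor kinase Axl (1.16), the mitotic gene Birc5 (1.15) and the DNA-binding partner Tead1 (1.04), while Lats2 (0.05) and Amotl2 (-0.72) were the lowest. Under that scaling Axl stood at 0.02 and Tead1 at 0.71. Of 9 Notch pathway genes, 1 was higher and 0 lower, with a median of 0.30 that turned to -0.08 with arrays scaled to the same SD and -0.05 with quantile normalization. It was Rbpj (1.09), the transcription factor of the pathway. Hes1 (0.70, but -0.17 with arrays scaled to the same SD), a Notch target, stood at 1.54 in treated TMX-/-, 0.84 in treated WT and 0.97 in untreated TMX-/- liver, and Jag2 (-0.27) and Maml1 (-0.25) were the lowest.

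Most receptors of osteopontin lay nearer 0 than Spp1. The integrin subunits with values on all arrays had a median of 0.02 for treated TMX-/- minus treated WT liver (-0.03 with either scaling of the arrays), from Itga8 (-0.68) to Itgb1 (0.55). Of these 5, 0 were past 2-fold, where 9.64% of all genes were higher and 10.6% lower. Cd44 (2.44), another receptor and a progenitor marker, and the integrin gene Itgav (2.03) had a value in treated TMX-/- liver alone. Of the 558 genes with a value on that array alone, 49.1% were at least 2-fold higher, so no difference between livers can be read from these values. Siglecg, a lectin that binds CD24, stood at -0.56. Hepatoblast genes were split, with Igf2 (1.34, or 0.73 with arrays scaled to the same SD) and Prox1 (0.77) above and Tbx3 (-0.21) and Cdh2 (-0.79) below 0. Afp, the fetal albumin-like protein, had no value in untreated TMX-/- liver and stood at 4.62 in treated TMX-/- and 2.53 in treated WT liver. Cd44, Itgav, Afp and Muc1 were named after their values were seen.

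**Figure D4:**
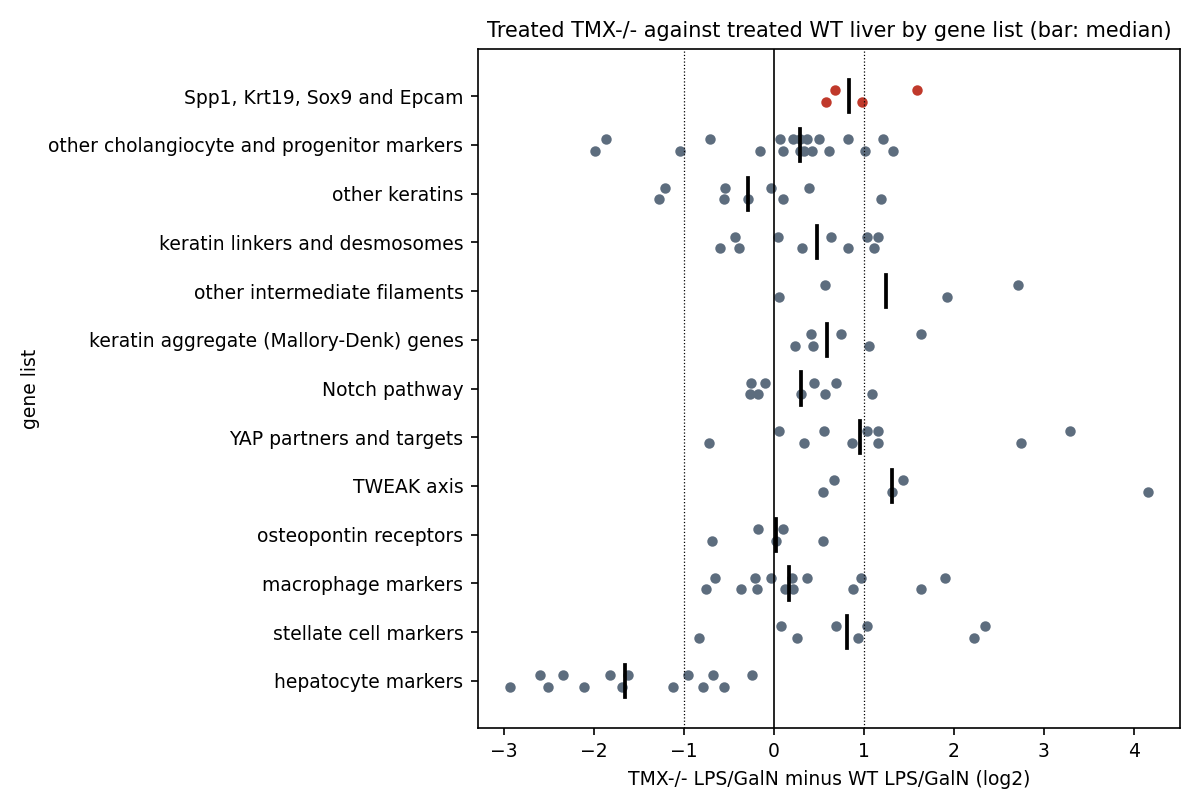
Log2 difference between treated TMX-/- and treated WT liver (x axis) for genes of each list with a value on all arrays (rows; points are genes, black bars are medians, dotted lines are 2-fold). Spp1, Krt19, Sox9 and Epcam have a median of 0.83, other cholangiocyte and progenitor markers of 0.29, stellate cell markers of 0.81 and hepatocyte markers of -1.65.

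Markers of other cells moved beside these genes, and their part in the ratios was not tested. Stellate cell markers had a median of 0.81 for treated TMX-/- minus treated WT liver. Of 8 genes, 3 were 2-fold higher, Acta2 (2.35), Tagln (2.23) and Pdgfrb (1.03), and 0 lower, against 9.64% and 10.6% of all genes. The same shares stand beside the unscaled counts of the lists below. Reln (-0.83) and Lum (0.08) were the lowest stellate cell markers. With arrays scaled to the same SD the median of the 8 was 0.23 and 0 of them passed 2-fold. For macrophage markers the median was 0.16 (-0.68 with arrays scaled to the same SD and -0.58 with quantile normalization), and 2 of 14, Msr1 (1.91) and Cd68 (1.64), were higher and 0 lower. These counts turned to 0 higher and 3 lower with arrays scaled to the same SD, and to 1 higher and 2 lower with quantile normalization. Clec4f (-0.66) and Cd163 (-0.75), genes of resident Kupffer cells, were the lowest without such scaling. Against untreated WT liver they stood at 0.03 and 0.62 in treated TMX-/- liver. Other Kupffer cell genes lay on both sides of 0 between the treated livers: Marco (0.97), Cd5l (0.88), Timd4 (0.12) and Vsig4 (-0.37). With arrays scaled to the same SD these were at -1.63, -0.71, -0.57 and -1.51. They were named after their values were seen. Both measured monocyte markers, S100a4 (4.74) and Plac8 (1.68), were higher, but with arrays scaled to the same SD they stood at 2.42 and 0.70, so that 1 of 2 passed 2-fold. Of 4 neutrophil markers, S100a8 (2.85) and S100a9 (2.65) were higher, Ly6g (-1.61) lower and Retnlg at 0.87, with a median of 1.76. Scaling the arrays to the same SD gave a median of 0.58, with 1 higher, S100a8 (1.18), and 0 lower, S100a9 standing at 0.36 and Ly6g at -0.37. Of 6 B and T cell markers, Cd3g (1.32) and Cd79b (1.02) were 2-fold higher and 0 were lower. Nkg7 (-0.81) and Cd3d (-0.13) were the lowest. The median of the 6, 0.33, turned to -0.16 with arrays scaled to the same SD and -0.15 with quantile normalization. Under either scaling 0 were higher and 2 lower, and 1 was higher in the values as deposited. All 3 measured mesothelial markers lay below 0, with Upk1b (-1.18) at more than 2-fold, but at -0.67 and 0 of 3 lower with arrays scaled to the same SD.

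Hepatocyte markers lay lower over the same comparison. Of 14 genes, 0 were at least 2-fold higher and 9 lower, against 9.64% and 10.6% of all genes. Their median was -1.65. Cyp2e1 (-2.93) and Cyp3a11 (-2.59), drug-metabolising enzymes, were the lowest, and Apob (-0.55) and Hnf4a (-0.24), the hepatocyte transcription factor, were the highest. With arrays scaled to the same SD the median was -0.68 and 5 of 14 were lower. Alb (-0.78) and Ttr (-0.95), named for this scaling alone, turned to 0.27 and 0.40, while the others stayed below 0. Cyp2e1 stood at -0.72 and Apob at -0.63 under that scaling. Against untreated WT liver the median was -1.88 in treated TMX-/-, -0.25 in treated WT and -0.25 in untreated TMX-/- liver. The ratios are centred on the median gene, so a smaller share of hepatocyte RNA and a larger share of RNA of other cells cannot be told apart.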

How the data were processed

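Liver RNA was measured on 3 arrays with 2 channels each. The values are the authors' deposited log ratios, taken as log2. Image analysis, background correction, normalization, logarithm base, ratio numerator and blanking rule: not given in the sources used here. With natural logarithms, every log2 value would be larger in size. The table held 23473 rows, of which 16631 had 1 symbol in GEO's platform annotation and 6842 had none. Symbols were updated through RefSeq synonyms of GRCm38.p6: 12622 were current, 3947 renamed and 62 kept. Probes of a gene were averaged, each array was centred on its median over the 10179 genes complete on all arrays, and differences were taken between arrays. Genes past 2-fold were counted. The members and lists were chosen with earlier results of these data known. Named list genes are the 2 highest and 2 lowest for treated TMX-/- minus treated WT liver, and all past 2-fold where at most 5 were. The calculation was tested on simulated data. Python 3.11.15, pandas 2.3.3 and numpy 2.4.6 were used.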

Additional observations from a re-analysis of the deposited data

Results flagged for a closer look

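Krt19 and Sox9 had responses to LPS/GalN of opposite sign in the 2 genotypes, and this difference was not tested. The response of Krt19 was 0.70 in TMX-/- liver and -0.92 in WT liver, a difference of 1.62 log2. That difference holds the untreated WT reference, against which Krt19 was also low in untreated TMX-/- liver (-0.64). Set against untreated TMX-/- liver instead, Krt19 in treated WT liver stood at -0.28. The response of Sox9 was 0.18 in TMX-/- liver and -0.34 in WT liver, a difference of 0.52 log2, which is less than the probe SD of 0.65. With arrays scaled to the same SD the TMX-/- response of Sox9 was -0.05, so its signs no longer differed. Of all 10179 genes, 36.6% had responses of opposite sign.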

How the results depend on the processing

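No paired analysis was possible because each group had 1 array. Planned results on Krt8, Krt18 and Krt7 could not be computed. The medians of Spp1, Epcam, Sox9 and Krt19 moved by less than the probe SD in all 49 values under other settings. This is a wide measure, as that SD, 0.42 to 0.76 on single arrays, exceeds the size of each single-array median. In the difference of the responses the median went from 1.23 to 1.78 with natural logarithms. For treated WT liver it went from -0.14 to 0.001 when set against untreated TMX-/- liver. Counts of genes past the threshold, which was 1.5-fold or 3-fold in some settings and 2-fold in the others, differed in 19 of 110 values. In 13 of them the count changed by more than 1.5 times or from 0 to 1. These counts take in Cd24a where it has a value. With equal SDs, treated TMX-/- liver had 1 higher gene, Spp1 at 1.02, in place of 2, as Cd24a stood at 0.998. Quantile normalization took only genes measured on all arrays, so Cd24a was left out there and Spp1, at 1.06, was the 1 higher gene. With either scaling, treated WT and untreated TMX-/- liver had 1 lower gene each. At 1.5-fold, treated WT and untreated TMX-/- liver had 1 lower gene each, and treated TMX-/- against treated WT liver had 3 higher. With natural logarithms the same comparison had 2 higher genes, and treated WT liver 1 lower. Both at 1.5-fold and with natural logarithms, 3 genes in place of 2 were higher in treated TMX-/- liver, in treated against untreated TMX-/- liver and in the difference of the responses. Treated against untreated TMX-/- liver had 1 higher gene at 3-fold, and 1 without synonyms, where Epcam has no row. Of 172 values of single genes, 168 kept their sign, but many of these could not have changed it. Natural logarithms keep every sign, and scaling to the same SD keeps the sign of a ratio on a single array. The choice of probe had no bearing on genes with a single probe, as all of these were. Krt19 in treated TMX-/- liver, 0.06, became -0.00575 as deposited and -0.00586 when centred over all rows. Sox9 in treated against untreated TMX-/- liver, 0.18, became -0.05 with equal SDs or quantile normalization. The scalings of the gene lists were added after the data were seen. No share of all genes past 2-fold is given under these scalings, so scaled counts have no background beside them. No signal over background was at hand.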
